A study of Mus musculus with 6 samples.

Results

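Toll-like receptors and the proteins that serve them in endosomes were followed in the infarcted mouse heart as 10 genes chosen by name out of 36047 genes with a value. These were the receptor genes Tlr1, Tlr2, Tlr4, Tlr7, Tlr8 and Tlr13, the adaptor gene Myd88, the receptor escort gene Unc93b1 and the transporter genes Slc15a3 and Slc15a4. They were chosen with earlier results of these data known, so counts among them are not independent of those results. The 6 libraries came from the infarct area of 12-week-old C57BL6 mice, female according to the methods, taken 48 h after 45 min of coronary occlusion and reperfusion (I/R). All mice had the injury, and no uninjured or untreated heart was part of the comparison. The LGK-974 group (n = 3) was given LGK-974 by mouth at 3 mg/kg once a day, and the DMSO group (n = 3) was given the solvent in citrate buffer. LGK-974 is an inhibitor of Porcupine, a membrane-bound acyltransferase without which Wnt proteins are not released. The comparison asks which of these sensing genes differ in the wounded heart when Wnt release is blocked.

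Toll-like receptors recognise conserved microbial molecules and also molecules that leak from dying cells. Some sit at the cell surface and read lipids and lipoproteins, and others sit in endosomes and read nucleic acids. Most of them hand the signal to the adaptor protein encoded by Myd88, which leads to NF-kappaB and interferon regulatory factors and from there to cytokine genes. After a myocardial infarction these receptors are known from infiltrating monocytes, macrophages and neutrophils, and Tlr4 also from heart muscle and vessel cells. The tissue was sequenced in bulk, so more cells of a type and more RNA per cell cannot be told apart.

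RefSeq promoter windows of GRCm38.p6, from 250 bases before to 50 bases after a transcript start, were held for 6 of the 10 genes. The windows of Tlr2, Tlr8, Tlr13 and Myd88 are shown, because these were the genes with a window whose levels did not overlap between the groups. Capitals mark matches, on either strand, to the letters GGGNNTTCC (an NF-kappaB-type motif), GAAANNGAA (an interferon-response-type motif) or GAGGAAG (a motif of the PU.1 type, named after a factor of myeloid cells). All are printed 5′ to 3′ on the strand of the gene.
Tlr2, chr3:83841559-83841858, minus strand: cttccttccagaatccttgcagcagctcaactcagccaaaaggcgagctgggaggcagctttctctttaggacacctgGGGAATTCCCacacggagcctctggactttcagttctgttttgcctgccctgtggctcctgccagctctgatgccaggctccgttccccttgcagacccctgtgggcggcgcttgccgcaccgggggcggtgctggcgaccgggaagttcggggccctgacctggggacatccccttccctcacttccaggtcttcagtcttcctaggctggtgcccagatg
Tlr8, chrX:167264280-167264579, minus strand: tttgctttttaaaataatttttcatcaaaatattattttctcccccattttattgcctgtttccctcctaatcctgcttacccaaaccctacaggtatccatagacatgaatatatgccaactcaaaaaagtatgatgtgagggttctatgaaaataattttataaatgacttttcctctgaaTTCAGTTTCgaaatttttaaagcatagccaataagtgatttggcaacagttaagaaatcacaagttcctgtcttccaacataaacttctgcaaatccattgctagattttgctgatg
Tlr13, chrX:106143025-106143324, plus strand: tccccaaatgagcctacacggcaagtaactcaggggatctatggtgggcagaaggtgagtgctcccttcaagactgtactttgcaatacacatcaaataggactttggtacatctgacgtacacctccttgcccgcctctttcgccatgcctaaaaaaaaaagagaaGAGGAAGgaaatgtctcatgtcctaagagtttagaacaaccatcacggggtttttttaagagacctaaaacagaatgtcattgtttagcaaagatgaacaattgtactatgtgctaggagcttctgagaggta
Myd88, chr9:119339969-119340268, minus strand: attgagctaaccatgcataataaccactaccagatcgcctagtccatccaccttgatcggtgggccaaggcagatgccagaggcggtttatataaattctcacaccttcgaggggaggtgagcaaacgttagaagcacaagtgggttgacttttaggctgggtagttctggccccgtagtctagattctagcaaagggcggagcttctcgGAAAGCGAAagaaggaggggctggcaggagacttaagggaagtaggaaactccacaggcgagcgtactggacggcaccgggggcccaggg
The Tlr2 window held overlapping NF-kappaB-type matches on both strands, starting 172 and 171 bases before the transcript start, and 5.82% of 32851 windows held this motif. The windows of Tlr8 and Myd88 each held an interferon-response-type match, starting 67 and 40 bases before the start, as did 8.56% of all windows. The match in Tlr13 was of the PU.1 type, 83 bases before the start, a motif found in 13.6% of all windows. Of the windows not shown, one of the windows of Tlr1, at chr5:64933509-64933808, held the same PU.1-type letters 23 bases before the start, while the window of Slc15a4 held none of the 3 motifs. These matches describe letters and not bound sites.

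Estimated read counts summed to between 41579787 and 80398211 per library, and 28.2 to 53.7% of them lay on mitochondrial genes. DMSO replicate 1 stood apart from the other libraries. Over 1780 sensory receptor genes (olfactory, vomeronasal and taste receptors), taken here as a measure of background, it held a median of 28.3 counts per kb against 0.78 to 9.8 in the others. Read as an even background, such counts would make up between 11.2% (Tlr4) and 60.1% (Tlr2) of the counts of each of the 10 genes in that library, with 51.9% for Tlr8 and 43.4% for Slc15a3, but at most 23.8% of the counts of any of the 10 genes in any other library. Values without DMSO replicate 1 are also given for the 10 genes and the gene lists where a call changed or a log2 fold change or median in the text moved by more than 1.5 times. The smallest p-value that an exact permutation test can reach with this number of mice is 0.1.

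Levels are given first as CPM, which are estimated counts scaled to library size with the TMM method. All 10 genes passed the filter on low counts and had positive log2 fold changes (LGK-974 over DMSO), with a median of 0.57 where that of all 20094 tested genes was −0.13. Of these, 6 genes (Tlr2, Tlr7, Tlr8, Tlr13, Myd88 and Slc15a3) had all LGK-974 mice above all DMSO mice, as did 10.7% of all tested genes. By edgeR's quasi-likelihood test the same 6 genes lay higher at an unadjusted p-value under 0.05, against 6.26% of all genes, and 0 lay lower, against 7.18%. Without DMSO replicate 1, Tlr1 joined them, so that 7 genes had an unadjusted p-value under 0.05, against 7.12% of all genes. The median of the 10 was then 0.72, and that of all genes −0.02. These 7 genes also had no overlap, but groups of fewer mice separate more easily. The share of all genes without overlap was not taken in that setting. None of the 10 passed an adjusted p-value of 0.05 by this test, and 0.0% of all genes did (0 of 20094, the lowest adjusted p-value being 0.368, while 2699 had an unadjusted one under 0.05). The summed level of the 10 genes was 132, 130 and 148 CPM in LGK-974 replicates 1, 2 and 3 and 85.5, 98.8 and 89.1 CPM in DMSO replicates 1, 2 and 3.

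**Figure D1:**
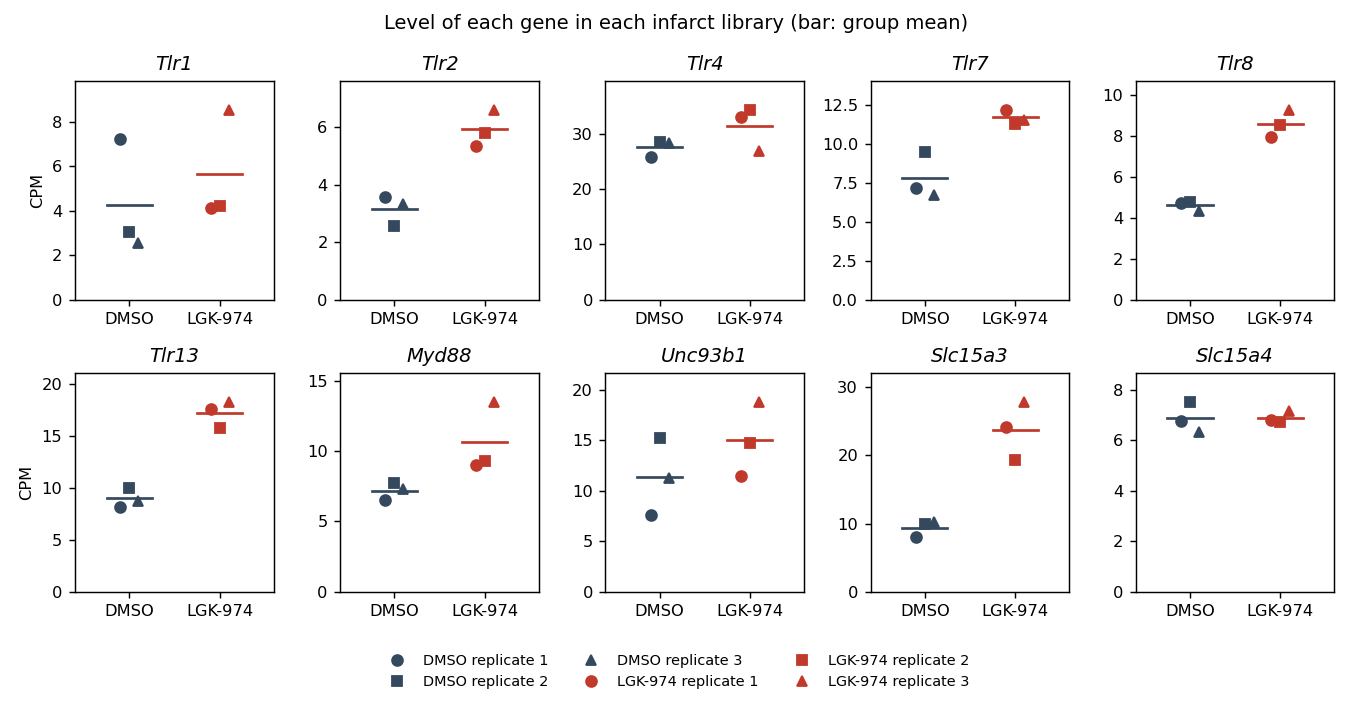
Each panel plots the level of 1 gene in CPM (vertical axis, from 0) in the 3 DMSO and 3 LGK-974 libraries, with a bar at each group mean. The groups do not overlap for Tlr2, Tlr7, Tlr8, Tlr13, Myd88 and Slc15a3, while Tlr1, Tlr4, Unc93b1 and Slc15a4 overlap.

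Among the receptors of the cell surface, Tlr2 lay higher with LGK-974 while Tlr4, the receptor of bacterial lipopolysaccharide, overlapped between the groups. Tlr2 recognises lipoproteins in a pair with another receptor and lies at 3:83836272-83841767 (GRCm38, minus strand, 1 annotated transcript). Its level was 5.34, 5.8 and 6.61 CPM in LGK-974 replicates 1, 2 and 3 and 3.57, 2.57 and 3.32 CPM in the DMSO replicates. The lowest LGK-974 library lay above the highest DMSO library. The means were 5.92 ± 0.643 CPM and 3.15 ± 0.522 CPM (SD, n = 3 each), and the fitted log2 fold change was 0.91 (standard error 0.25, edgeR adjusted p = 0.368). With the background taken off each library, the log2 fold change of Tlr2 was 1.25.

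Tlr4 (4:66827584-66930284, plus strand) had 33.1, 34.4 and 26.9 CPM under LGK-974 and 25.9, 28.5 and 28.4 CPM under DMSO. LGK-974 replicate 3 lay below the upper 2 DMSO libraries. The means of 31.5 ± 3.99 CPM and 27.6 ± 1.51 CPM (SD, n = 3 each) gave a log2 fold change of 0.19 (standard error 0.151, edgeR adjusted p = 0.531).

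Tlr1, a partner of Tlr2 in the recognition of lipoproteins, lies at 5:64924679-64933563 (minus strand). It was measured at 4.13, 4.22 and 8.55 CPM under LGK-974 and at 7.24, 3.02 and 2.55 CPM under DMSO. The high DMSO value was that of DMSO replicate 1, and the groups overlapped through it. The log2 fold change of 0.40 (standard error 0.476, edgeR adjusted p = 0.677) became 1.03 without that library (standard error 0.362, edgeR adjusted p = 0.372), which made Tlr1 the seventh gene with an unadjusted p-value under 0.05, where 7.12% of all genes lay higher in that fit.

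The transcripts of Tlr1 show where the extra counts of DMSO replicate 1 lay. Tlr1-203, a processed transcript of 419 bases without a coding sequence, held 5.4 CPM in DMSO replicate 1 and 1.33 to 2.53 CPM in the other 5 libraries, which was 74.6% of the Tlr1 counts in the former and 29.6 to 54.1% in the latter. With protein-coding transcripts alone, the log2 fold change of Tlr1 was 1.17 (standard error 0.478, edgeR adjusted p = 0.325).

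The receptors of endosomes, Tlr7, Tlr8 and Tlr13, all lay higher with LGK-974. Tlr7 reads single-stranded RNA and its breakdown products, and Tlr13, absent in humans, reads a stretch of bacterial ribosomal RNA. The genes of all 3 receptors lie on chromosome X. There Tlr8 (167242696-167264329) and Tlr7 (167304929-167330558) are neighbours on the minus strand 40599 bases apart, and Tlr13 (106143204-106160493) lies alone on the plus strand.

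Tlr13, like Tlr2, Tlr8 and Slc15a3, kept an unadjusted p-value under 0.05 in each of the 6 fits with a mouse left out. Its level was 17.6, 15.8 and 18.3 CPM under LGK-974 and 8.17, 10.03 and 8.77 CPM under DMSO. Every LGK-974 mouse was clear of every DMSO mouse, with means of 17.2 ± 1.3 CPM and 8.99 ± 0.952 CPM (SD, n = 3 each). The log2 fold change was 0.94 (standard error 0.162, edgeR adjusted p = 0.368), and it lay between 0.89 and 1.06 with each mouse left out.

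Tlr8 was measured at 7.92, 8.51 and 9.27 CPM under LGK-974 and at 4.7, 4.78 and 4.32 CPM under DMSO. The DMSO libraries lay close together, far below the LGK-974 libraries. The means were 8.56 ± 0.679 CPM and 4.6 ± 0.244 CPM (SD, n = 3 each), and the log2 fold change was 0.90 (standard error 0.192, edgeR adjusted p = 0.368), or 1.11 with the background taken off.

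Tlr7 had 12.2, 11.3 and 11.5 CPM under LGK-974 and 7.14, 9.47 and 6.73 CPM under DMSO. DMSO replicate 2 came nearest to the LGK-974 libraries without reaching them. The means of 11.7 ± 0.469 CPM and 7.78 ± 1.48 CPM (SD, n = 3 each) gave a log2 fold change of 0.59 (standard error 0.193, edgeR adjusted p = 0.368), and 5 of the 6 fits with a mouse left out kept an unadjusted p-value under 0.05. Without LGK-974 replicate 1 it did not pass, at a log2 fold change of 0.54.

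Myd88 lay higher as well, and Unc93b1 was not separated between the groups. Myd88 (9:119335934-119341411, minus strand), the shared adaptor, had 8.99, 9.27 and 13.5 CPM under LGK-974 and 6.51, 7.74 and 7.27 CPM under DMSO. LGK-974 replicate 3 was the highest library, and the other 2 LGK-974 libraries also lay above all DMSO libraries. With means of 10.6 ± 2.5 CPM and 7.17 ± 0.619 CPM (SD, n = 3 each), the log2 fold change was 0.56 (standard error 0.219, edgeR adjusted p = 0.368), and it had an unadjusted p-value under 0.05 in 4 of the 6 fits with a mouse left out. Myd88 did not pass without LGK-974 replicate 3 (0.41) or without DMSO replicate 2 (0.60). Nor did it pass by limma-voom over all 6 mice (unadjusted p = 0.0537) or by DESeq2 without DMSO replicate 1 (unadjusted p = 0.0729).

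The exons of Myd88 share 290 of 2576 bases with Acaa1a, a gene of peroxisomal fatty acid breakdown on the opposite strand. Acaa1a was at 17.3 ± 2.35 CPM under LGK-974 and 18.7 ± 4.54 CPM under DMSO (SD, n = 3 each, log2 fold change −0.11, edgeR adjusted p = 0.807). Whether the libraries kept the strand is not given in the sources used here.

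Unc93b1 (19:3935186-3949340, plus strand) encodes the escort that carries nucleic acid receptors from the endoplasmic reticulum to endosomes. It had 11.4, 14.7 and 18.8 CPM under LGK-974 and 7.57, 15.2 and 11.2 CPM under DMSO. DMSO replicate 2 lay above 2 of the LGK-974 libraries. Its log2 fold change was 0.40 (standard error 0.291, edgeR adjusted p = 0.496), and 0.20 without DMSO replicate 1.

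The transporter genes parted, with Slc15a3 higher under LGK-974 and Slc15a4 near the same mean in both groups. Both encode endolysosomal transporters that move histidine and small peptides, bacterial muramyl dipeptide among them, out to the cytosol, and Slc15a4 is known to be needed for signaling by Tlr7 and Tlr9. Slc15a3 (19:10839727-10859362, plus strand) was measured at 24.2, 19.4 and 27.9 CPM under LGK-974 and at 7.99, 9.89 and 10.2 CPM under DMSO. The groups lay far apart, with means of 23.8 ± 4.24 CPM and 9.37 ± 1.2 CPM (SD, n = 3 each). Its log2 fold change of 1.35 was the largest of the 10 (standard error 0.192, edgeR adjusted p = 0.368), and it lay between 1.26 and 1.53 with each mouse left out.

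Slc15a4 (5:127595664-127632897, minus strand) had 6.81, 6.72 and 7.17 CPM under LGK-974 and 6.76, 7.53 and 6.31 CPM under DMSO. All 6 libraries lay in a narrow range, and the LGK-974 values fell inside the range of the controls. The log2 fold change came to 0.01 (standard error 0.187, edgeR adjusted p = 0.991). Coding transcripts held 76.2, 55.0 and 75.0% of these counts under LGK-974 and 51.2, 88.2 and 45.4% under DMSO. With protein-coding transcripts alone the log2 fold change was 0.06, at a wider standard error of 0.356 (edgeR adjusted p = 0.944). The exons of Slc15a4 share 427 of 5312 bases with Gm43474 on the opposite strand, a gene without a transcript in the tables.

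**Figure D2:**
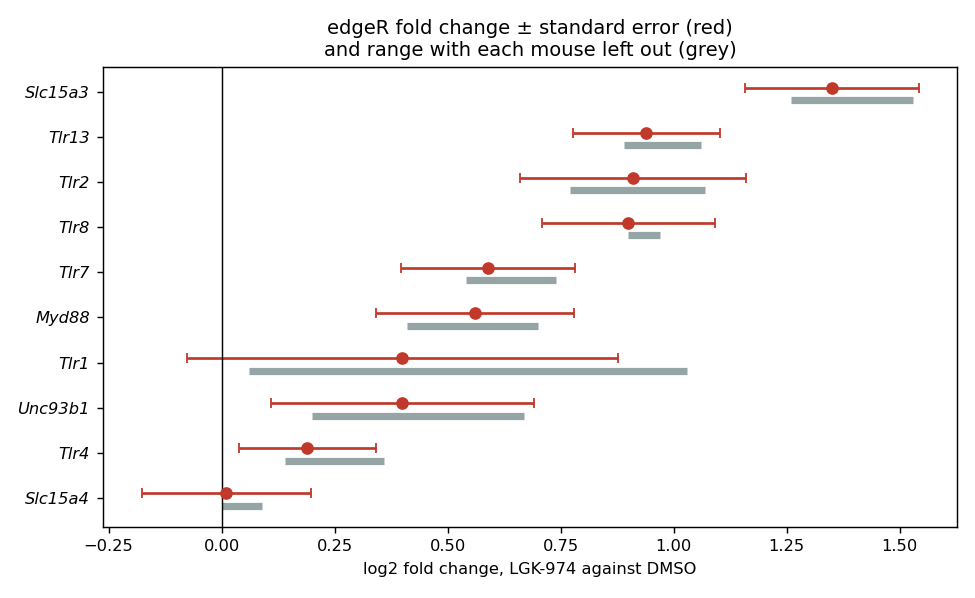
The horizontal axis is the log2 fold change (LGK-974 over DMSO) for each of the 10 genes, with red points and bars for the edgeR estimate ± standard error over all 6 mice and grey bars for the range over the 6 fits that each left out 1 mouse. Slc15a3 lies at 1.35 and Slc15a4 at 0.01, and the range of Tlr1 runs from 0.06 to 1.03.

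The higher counts of Slc15a3 lay mainly in its coding transcript. Slc15a3-201, of 2345 bases, held 20.4, 17.7 and 22.8 CPM under LGK-974 and 5.85, 9.38 and 7.99 CPM under DMSO, without overlap. The retained-intron transcript Slc15a3-203 held 3.74, 1.61 and 5.07 CPM under LGK-974 and 1.95, 0.336 and 2.22 CPM under DMSO, and these ranges overlapped.

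Slc15a3 shares 1541 of its 5491 exon bases with Tmem132a, a transmembrane protein gene on the opposite strand. Only 94 of the shared bases lie in the coding transcript Slc15a3-201, while all 1541 lie in Slc15a3-203. Tmem132a was at 4.36, 4.4 and 8.91 CPM under LGK-974 and 3.42, 6.45 and 5.65 CPM under DMSO, with overlap and a log2 fold change of 0.19 (standard error 0.373, edgeR adjusted p = 0.815).

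**Figure D3:**
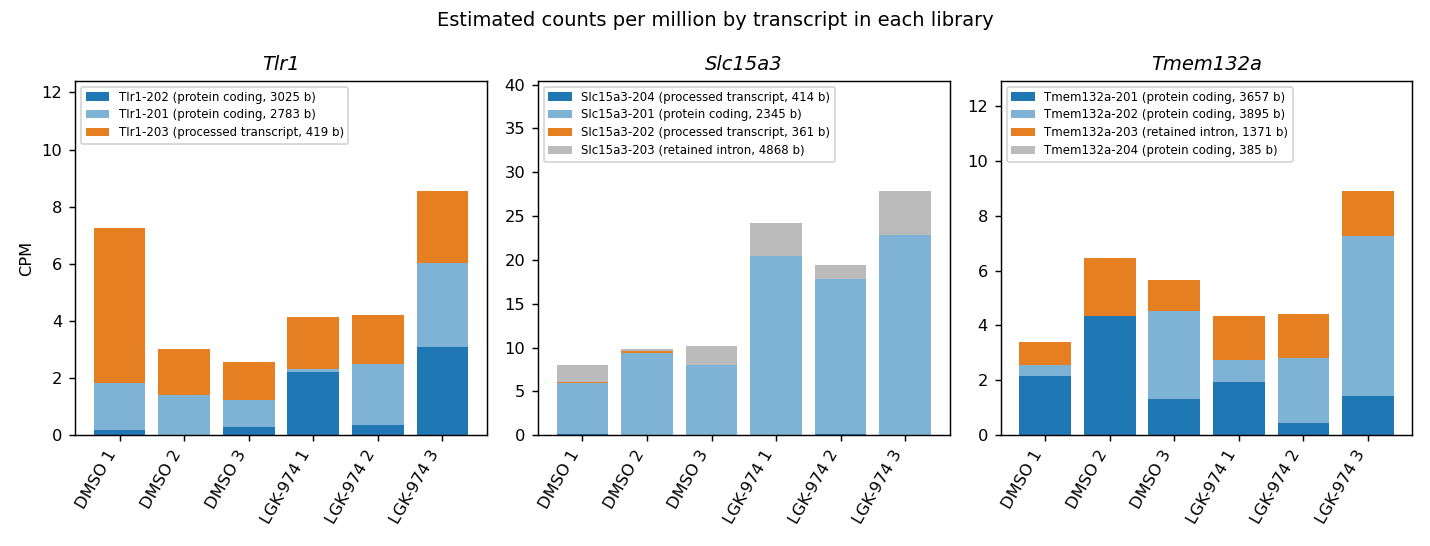
Stacked bars give the CPM (vertical axes, from 0) held by each transcript of Tlr1, Slc15a3 and Tmem132a in the 6 libraries, with transcript type and length in the legends. The short Tlr1-203 reaches 5.4 CPM in DMSO replicate 1, and the coding Slc15a3-201 is at 17.7 CPM or more in each LGK-974 library and at 9.38 CPM or less in each DMSO library.

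The program used in the study, DESeq2, was run on the same counts. It called 2 of the 10 genes at an adjusted p-value of 0.05, Slc15a3 (log2 fold change 1.38, DESeq2 adjusted p = 0.000278) and Tlr13 (0.97, adjusted p = 0.0122), both higher with LGK-974, where it called 0.852% of 23595 genes higher. With its filter set to that threshold, it called the same number of the 10 genes and 0.983% of all genes higher. Tlr8 had an adjusted p-value of 0.0545 and Tlr2 of 0.118 by DESeq2 over all 6 mice. Without DMSO replicate 1, a fit added after the values were seen, DESeq2 called 4 of the 10 higher, where 1.9% of all genes were: Slc15a3 (adjusted p = 4.54e-05), Tlr13 (0.00428), Tlr8 (0.0192) and Tlr2 (0.0451). When edgeR was run without a filter on low counts, 3 of the 10 (Slc15a3, Tlr13 and Tlr8) had an adjusted p-value under 0.05 and lay higher, as did 0.89% of all genes.

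The levels of the 10 genes were compared with each other per length, as the TPM values deposited by the authors, which are scaled to transcript length and library total. Only transcripts of at least 1000 bases were summed, a limit chosen after the values were seen, because the short Tlr1-203 alone would place Tlr1 at the head of the order. Over the 6 libraries, the mean level was 8.14 TPM for Tlr4, 7.48 for Slc15a3, 5.87 for Unc93b1, 5.11 for Myd88, 3.42 for Tlr13, 2.58 for Tlr7, 2.41 for Slc15a4, 1.96 for Tlr8, 1.64 for Tlr2 and 1.07 for Tlr1. The ranges of all neighbours in this order overlapped over the 6 libraries. Within a library, Myd88 lay above Tlr13, Tlr13 above Tlr7, Tlr8 above Tlr2 and Tlr2 above Tlr1 in 6 of 6 libraries. Slc15a3 lay above its next neighbour Unc93b1 in 3 of 6 libraries, its TPM being 10.1, 6.02 and 18.6 under LGK-974 and 2.05, 4.03 and 4.0 under DMSO. TPM values share the total of a library with mitochondrial transcripts, and LGK-974 replicate 3, with the lowest mitochondrial share, held the highest TPM of each of the 10 genes.

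Leukocyte and macrophage genes lay higher with LGK-974 as well. Of 8 leukocyte markers, 7 lay higher under LGK-974 at an unadjusted p-value under 0.05 (edgeR). Their median log2 fold change was 0.93, with a summed level of 155 to 225 CPM against 80.6 to 115 CPM. Of 8 monocyte and macrophage markers 6 did so, with a median of 0.94 and a summed level of 454 to 537 CPM against 194 to 280 CPM. The 2 that did not pass over all mice were Cx3cr1 (log2 fold change 0.20) and Ccr2 (1.0), and both overlapped between the groups. Ccr2 had 16.5, 13.3 and 39.8 CPM under LGK-974 and 13.8, 13.7 and 7.34 CPM under DMSO. Ptprc, the gene of the pan-leukocyte antigen CD45, was at 45.3 ± 8.25 CPM under LGK-974 and 26.3 ± 3.88 CPM under DMSO (SD, n = 3 each). Without DMSO replicate 1, 7 leukocyte and 7 macrophage markers lay higher at that threshold. For leukocytes the study's flow cytometry at the same time point went the other way. It found fewer leukocytes, myeloid cells and inflammatory monocytes under LGK-974, and for macrophages and neutrophils a trend without statistical significance. Those were cell numbers in whole hearts of other mice, while the values here are RNA of the infarct area.

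Markers of other cell types were read in the same way. Of 5 neutrophil markers tested, 0 lay higher and 1, Cxcr2, lower, with a summed level of 32.7 to 45.9 CPM under LGK-974 and 40.3 to 79.2 CPM under DMSO, the top value being that of DMSO replicate 1. Without that library 1 of the 5 lay higher and 0 lower, and Cxcr2 also did not pass in the fits that left out an LGK-974 mouse. The defining neutrophil genes Retnlg and Ly6g stayed below the filter on low counts, at 0.129 and 0.0314 CPM on average under LGK-974 and 0.224 and 0.15 CPM under DMSO. The plasmacytoid dendritic cell markers Siglech and Ccr9 summed to 4.82 to 6.89 CPM under LGK-974 and 5.65 to 24.6 CPM under DMSO, again with DMSO replicate 1 at the top. Of these, 1 lay lower over all mice and 0 without that library. Of 4 B cell markers 0 lay higher or lower, with summed levels of 1.87 to 3.29 CPM against 1.77 to 7.01 CPM. Of 6 endothelial markers 0 did, and of 6 fibroblast markers 2 lay higher (median log2 fold change 0.54). Cardiomyocyte genes showed the samples to be heart tissue, but not which part of the heart. Their 8 markers summed to 17700 to 25200 CPM under LGK-974 and 22000 to 30200 CPM under DMSO. The median log2 fold change was −0.43, and 1 of 8, Actc1, lay higher at that threshold. Actc1 did not pass without LGK-974 replicate 1, LGK-974 replicate 3 or DMSO replicate 3, and the median was −0.21 and −0.16 without the last 2. The part of these marker differences in the values of the 10 genes was not tested.

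Each gene was set against the leukocyte markers of its own library, as its log2 CPM minus the mean log2 CPM of the 8 markers. On this scale most of the transcriptome lay lower with LGK-974: every LGK-974 library was below every DMSO library in 65.9% of all tested genes and above in 0.134%. Of the 10 genes 4 lay below without overlap, Tlr4, Myd88, Unc93b1 and Slc15a4, and 1, Slc15a3, lay above.

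Slc15a3 relative to leukocyte markers was at 0.61, 0.34 and 0.36 under LGK-974 and 0.13, −0.18 and 0.13 under DMSO. All 3 LGK-974 libraries lay above all 3 DMSO libraries, and the difference of the log2 means was 0.41 (exact two-sided permutation test, p = 0.1, the smallest that 3 against 3 allows). Against the monocyte and macrophage markers the difference was also 0.41 without overlap (exact two-sided permutation test, p = 0.1), where 0.114% of all genes lay above and 68.3% below.

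Tlr2, Tlr8 and Tlr13 relative to leukocyte markers overlapped between the groups, with differences of −0.02, −0.04 and 0.01 (exact two-sided permutation test, p = 1.0 for each). Tlr13 was at 0.15, 0.04 and −0.25 under LGK-974 and at 0.16, −0.16 and −0.09 under DMSO, so that its level kept close to the mean of these markers in all 6 libraries. Tlr7 and Tlr1 overlapped too, with differences of −0.33 and −0.46 (exact two-sided permutation test, p = 0.3 and 0.6). Without DMSO replicate 1, all 5 still overlapped, and the differences were 0.24 for Tlr2, 0.14 for Tlr8, 0.11 for Tlr13, −0.22 for Tlr7 and 0.16 for Tlr1, whose sign turned as did those of Tlr2 and Tlr8.

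Slc15a4 lay below the markers in every library and further below under LGK-974, at −1.22, −1.19 and −1.59 under LGK-974 and −0.11, −0.57 and −0.56 under DMSO, a difference of −0.92 (exact two-sided permutation test, p = 0.1). For Tlr4 the difference was −0.74, for Unc93b1 −0.5 and for Myd88 −0.39 (exact two-sided permutation test, p = 0.1 for each of the 3). These genes lay below without overlap, as did 65.9% of all tested genes, so this placing does not set them apart. With macrophage markers as the reference, Tlr7 was also below without overlap, at −0.33 (exact two-sided permutation test, p = 0.1), and Unc93b1 overlapped at −0.5 (p = 0.2 by the same exact test).

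**Figure D4:**
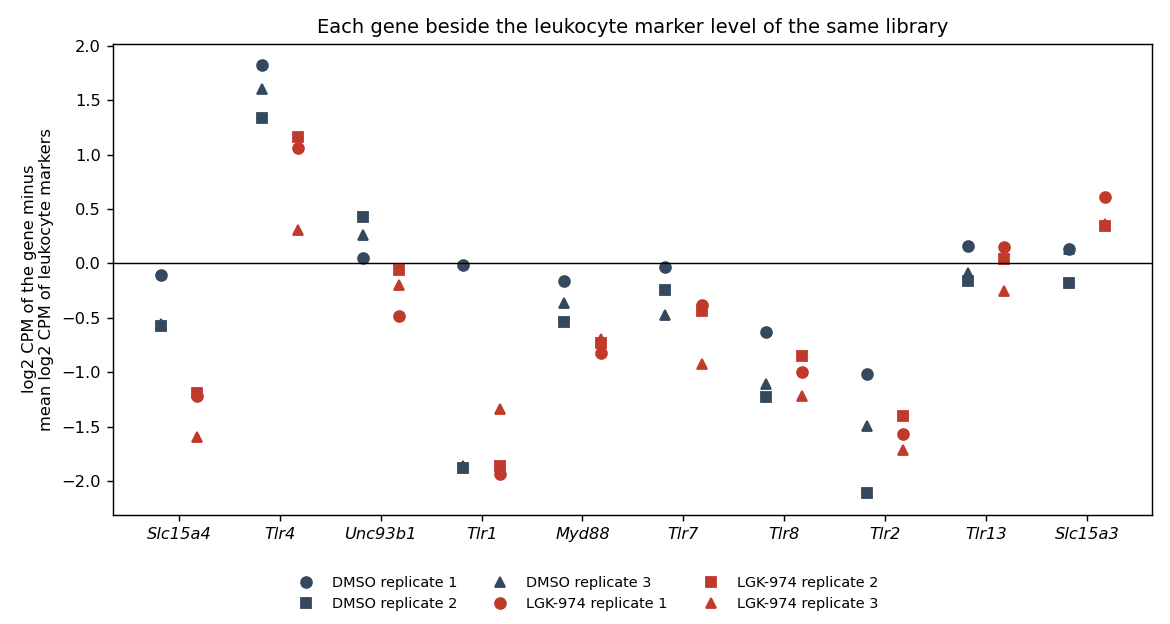
For each gene, points give the log2 CPM minus the mean log2 CPM of 8 leukocyte markers in the same library (vertical axis), with DMSO libraries in dark blue and LGK-974 libraries in red. Slc15a3 is above in LGK-974 (0.34 to 0.61 against −0.18 to 0.13), Tlr13, Tlr8 and Tlr2 overlap, and Slc15a4, Tlr4, Unc93b1 and Myd88 are below.

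The other genes of the pathway were read by role, from lists written by name with earlier results of these data known. Of 75 such genes 71 passed the filter on low counts, and of these 19 lay higher and 1 lower with LGK-974 at an unadjusted p-value under 0.05 (edgeR), while 51 did not pass it. Their median log2 fold change was 0.25, and the background was 6.26% of all genes higher and 7.18% lower. For each gene named below as higher or lower, the p-value of edgeR adjusted over all genes was 0.368.

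Among the other Toll-like receptors, 2 of 4 tested lay higher. Tlr3, the endosomal receptor of double-stranded RNA, had 10.6, 11.9 and 10.6 CPM under LGK-974 and 7.94, 6.76 and 8.3 CPM under DMSO (log2 fold change 0.52, standard error 0.176). Those values did not overlap, but Tlr3 passed the unadjusted threshold in only 3 of the 6 fits with a mouse left out, losing it without LGK-974 replicate 1, LGK-974 replicate 2 or DMSO replicate 2. Tlr9, the endosomal receptor of unmethylated DNA, had 2.56, 3.88 and 7.64 CPM under LGK-974 and 2.14, 2.59 and 0.933 CPM under DMSO (log2 fold change 1.31, standard error 0.527), and its groups overlapped. Tlr9 passed in 4 of the 6 such fits, with 0.83 without LGK-974 replicate 3 and 1.09 without DMSO replicate 3 where it did not. Tlr5 did not pass the threshold but had every LGK-974 library below every DMSO library, as in 7.27% of all genes. It had 1.67, 1.31 and 1.13 CPM under LGK-974 and 2.06, 1.88 and 1.69 CPM under DMSO. Its log2 fold change was −0.46 (edgeR adjusted p = 0.567), and 0.35 with the background taken off. Tlr11 and Tlr12, receptors of the parasite protein profilin, stayed below the filter, at 0.121 and 0.105 CPM on average under LGK-974 and 0.615 and 0.178 CPM under DMSO.

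Of 6 surface co-receptors and ligand carriers, 2 lay higher and 0 lower (median log2 fold change 0.14). The median was 0.38 without DMSO replicate 1 and 0.08 without DMSO replicate 3, and 2 genes lay higher in both of these fits. Cd14, which hands lipopolysaccharide to Tlr4 and its partner, was at 6.8 ± 1.49 CPM under LGK-974 and 3.23 ± 0.571 CPM under DMSO (SD, n = 3 each, log2 fold change 1.07). Cd180, a receptor-like regulator on B cells and myeloid cells, was at 23.8 ± 3.52 CPM and 10.2 ± 3.46 CPM (SD, n = 3 each, log2 fold change 1.22, DESeq2 adjusted p = 0.0163).

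Of 7 genes of receptor folding and transport, 3 lay higher and 0 lower (median 0.28). Hsp90b1, the chaperone gp96 that folds most Toll-like receptors, was at 546 ± 18.7 CPM under LGK-974 and 368 ± 20.6 CPM under DMSO (SD, n = 3 each, log2 fold change 0.57). Rab7b, a GTPase of late endosomes, and Cnpy4, a chaperone partner, had log2 fold changes of 0.91 and 0.57. Rab7b passed in each fit with a mouse left out, Hsp90b1 in all but the fit without LGK-974 replicate 1, and Cnpy4 in 1 of the 6, the fit without DMSO replicate 3. Without DMSO replicate 1, 2 of the 7 lay higher and the median was 0.16. Without LGK-974 replicate 1 the count was 1, and without DMSO replicate 3 the median was 0.57.

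The proteases and nucleases of endosomes, which trim the endosomal receptors and prepare their ligands, held 5 of 10 genes higher and 0 lower (median log2 fold change 0.52). The smallest p-values were those of Ctss, Lgmn and Ctsb, which encode cathepsin S, asparagine endopeptidase and cathepsin B. Ctss was at 98.1 ± 14.8 CPM under LGK-974 and 46.0 ± 12.4 CPM under DMSO (SD, n = 3 each), and the fitted log2 fold change was 1.09 (standard error 0.235). The log2 fold changes of Lgmn and Ctsb were 0.81 and 0.92.

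Of 17 adaptors and kinases downstream of the receptors, 1 lay higher and 16 did not pass the threshold, with a median log2 fold change of 0.08. The 1 gene was Ikbke, a kinase that acts on interferon regulatory factors, with a log2 fold change of 0.99 (standard error 0.307). Of 7 transcription factors 3 lay higher (median 0.32). Irf7, which drives type I interferon genes behind Tlr7 and Tlr9, had 15.9, 18.9 and 32.8 CPM under LGK-974 and 8.82, 9.72 and 8.55 CPM under DMSO, without overlap (log2 fold change 1.32, standard error 0.276, DESeq2 adjusted p = 0.00672). Irf5, which acts with Myd88 in macrophages, and Irf8, a factor of myeloid development, had log2 fold changes of 1.07 and 0.57. Irf8 no longer passed the threshold without DMSO replicate 1, DMSO replicate 3 or LGK-974 replicate 3. Without DMSO replicate 3 the median of the adaptors and kinases was 0.24 and that of the transcription factors 0.54. None of the 6 brakes of the pathway passed the threshold, and their log2 fold changes lay between −0.15 and 0.29.

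Of 6 tested genes of peptidoglycan sensing and Slc15 partners, 0 lay higher and 1, Slc15a2, lower. Slc15a2 encodes a peptide transporter of the cell surface and had 0.907, 2.15 and 0.893 CPM under LGK-974 and 6.16, 3.93 and 9.9 CPM under DMSO. Every LGK-974 mouse lay below every DMSO mouse, as in 7.27% of all genes, and the log2 fold change was −2.34 (standard error 0.496, DESeq2 adjusted p = 0.00393). The annotation used here lists Tasl, a partner of Slc15a4, under its earlier symbol 5430427O19Rik, a gene described here after its values were seen. It had 1.96, 2.11 and 2.55 CPM under LGK-974 and 8.42, 4.01 and 1.92 CPM under DMSO, and the groups overlapped. Its log2 fold change of −1.12 (edgeR adjusted p = 0.369) became −0.41 without DMSO replicate 1.

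Of 8 tested cytokine and feedback genes, 3 lay higher and 0 lower (median 0.77). Cxcl10, an interferon-induced chemokine, had 4.09, 4.55 and 10.8 CPM under LGK-974 and 1.61, 0.889 and 2.85 CPM under DMSO, without overlap (log2 fold change 1.86, standard error 0.541). Socs3, a feedback inhibitor of cytokine signaling, and Nfkbiz, a nuclear regulator of NF-kappaB, had log2 fold changes of 0.94 and 0.64. Il12b and Ifnb1 stayed below the filter on low counts, at 0.0772 and 0.0118 CPM on average under LGK-974 and 0.36 and 0.142 CPM under DMSO. Nfkbiz did not pass without LGK-974 replicate 3. Without DMSO replicate 1, 5 of the 8 lay higher, and without LGK-974 replicate 3, 2 did.

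**Figure D5:**
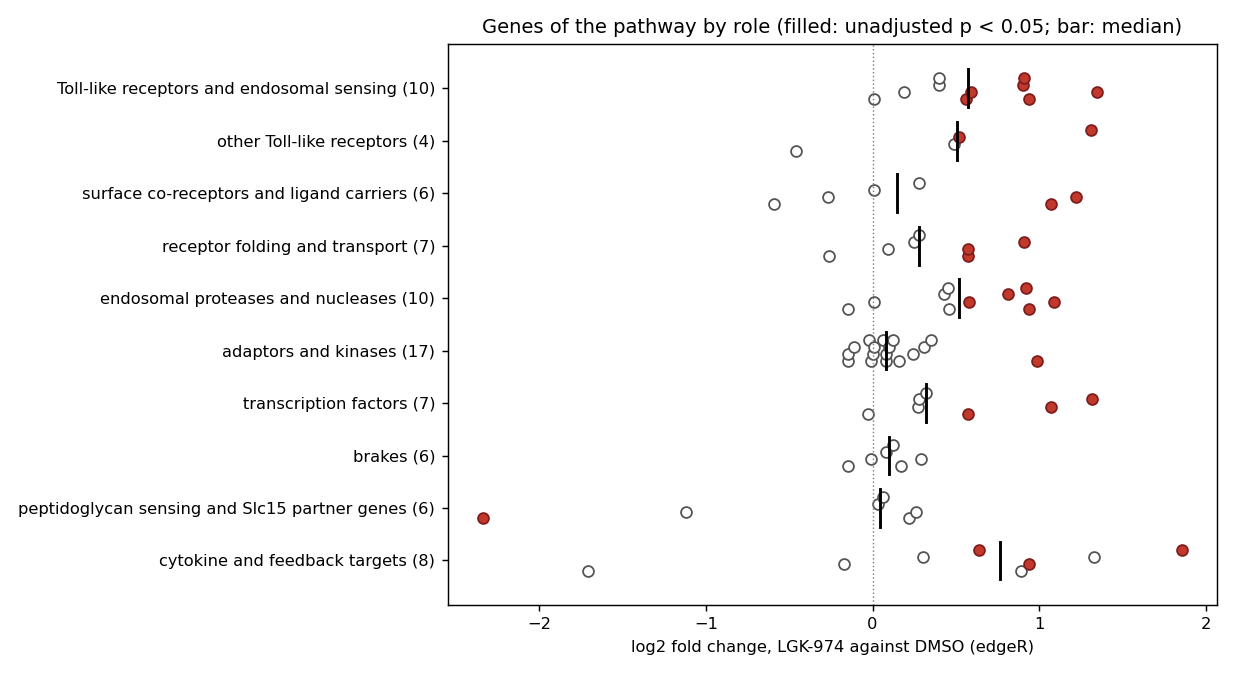
Each point is the log2 fold change of 1 gene (horizontal axis, edgeR, LGK-974 against DMSO), in rows by role with the number of tested genes in brackets, filled where the unadjusted p-value is under 0.05, with a black bar at the median of the row. The adaptors and kinases gather near 0 with a median of 0.08, the endosomal proteases and nucleases lie at a median of 0.52, and Slc15a2 stands alone at −2.34.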

How the data were processed

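Infarct tissue of 6 mice, 3 per group, was measured by RNA sequencing. The authors depleted ribosomal RNA with RiboZero, used the TrueSeq RNA Access kit, quantified 118489 transcripts with Kallisto on GRCm38 and deposited a table per library that holds estimated counts and TPM values by transcript. The versions are not given in the sources used here. The 10 genes and all gene lists were chosen with earlier results of these data known.

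Estimated counts were joined to genes through GENCODE M21 (98.6% of transcripts, at least 99.59% of counts), summed and rounded, so that reads divided between overlapping genes remain divided. The 20094 genes that reached 10 counts in 3 or more samples entered edgeR's quasi-likelihood test (version 4.0.16 under R 4.3.3), with TMM factors of 0.816 to 1.40 and Benjamini-Hochberg adjustment over these genes at 0.05. Log2 CPM used a prior count of 2. The alternatives behind the ranges of the closing section were DESeq2 1.42.0, limma-voom (limma 3.58.1), RLE size factors and no filter on low counts. The others were the replicate number as a block, protein-coding transcripts alone, counts less background and each mouse left out. The edgeR step was tested on simulated data with the same dispersion for every gene, no outlying library and no background. That test therefore does not cover a library such as DMSO replicate 1. Differences against marker genes (10 genes) used exact two-sided permutation tests, unadjusted. Python 3.11.15 was used for tables and plots, with pandas 2.3.3, NumPy 2.4.6, matplotlib 3.10.9 and SciPy 1.17.1.

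Same-numbered libraries of the 2 groups had deviations from the group means that correlated at 0.475, −0.0482 and 0.391. Differently numbered libraries were not set beside them, so these values do not settle whether a number links libraries. The main fit used no block, because same-numbered libraries come from different mice. The mice are separate animals according to the study. Of each other list, genes with an unadjusted p-value under 0.05 (the 3 smallest if more), those below the filter and those overlapping one of the 10 genes were named. Tlr5 was added after its values were seen. Fibroblast, endothelial and other markers were read by list. Depth limits the genes with few counts most, and the number of mice limits precision throughout.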

Additional observations from a re-analysis of the deposited data

How the results depend on the processing

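The number of the 10 genes past an adjusted p-value of 0.05 was 0 in the main edgeR fit, and 2 with DESeq2, 2 with DESeq2 filtered at 0.05, 4 with DESeq2 on all but DMSO replicate 1 (the last 2 added after seeing the data) and 3 without a filter on low counts. It was 0 in each edgeR fit that left out 1 mouse. Of 150 pairs of a gene and an alternative setting, 149 kept a positive log2 fold change. The exception was Slc15a4, at −0.0031 with DESeq2 on all but DMSO replicate 1. Over the alternatives, the number with an unadjusted p-value under 0.05 lay between 5 and 7 and the median log2 fold change between 0.54 and 0.72. The median of all genes moved from −0.13 to −0.74 with DESeq2 and to −0.55 without the filter, and lay between −0.13 and 0.02 in the other fits. With counts per kb of effective length in place of TPM, 6 of the 10 genes kept their place in the order of levels over all transcripts. The genes higher without overlap numbered 6 to 7 over the settings that give a value, and those without overlap relative to leukocyte or macrophage markers 5 to 6. Shares of all genes for these counts were taken only with all 6 mice. Overlap between groups has no separate value under another test, filter or block.

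The replicate number was also fitted as a block, a pairing that the libraries' correlations do not settle. With it, 0 of the 10 genes passed an adjusted p-value of 0.05, 6 had an unadjusted one under 0.05 and the median log2 fold change was 0.57. Over all genes, 0 passed the adjusted threshold with the block and 3312 the unadjusted one, against 2699 without the block. The lowest edgeR adjusted p-value was 0.0535 with the block and 0.368 without it.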
